A study of Danio rerio with 6 samples.

Results

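Proteasome genes were read on 6 Affymetrix arrays of RNA from whole zebrafish embryos, collected 72 hours after fertilization. Members were the probe sets of the value table with a single platform gene symbol beginning with psma, psmb, psmc, psmd, psme, psmf or psmg. The probe set with the highest mean over the 6 arrays stood for each gene. The rule found 61 probe sets of 50 genes, among 15617 probe sets and 8793 genes with a single symbol. The symbols psmc3ip and psme3ip1 name proteins that interact with a subunit and are no subunits, and 48 genes remained. The core particle was covered by 20 genes (8 of the alpha ring, 7 of the beta ring and 5 immunoproteasome and related beta subunits). The regulatory particle was covered by 18 (7 base ATPases, 4 base non-ATPases and 7 of the lid), and 10 further genes had other roles (3 base chaperones, 3 core chaperones, 3 activators and 1 inhibitor). Of these 48 genes, 43 passed a filter that removed the dimmest 25% of probe sets by mean signal, namely 15 of the core, all 18 of the regulatory particle and all 10 with other roles.

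The study compared 3 groups of 2 arrays. In the ERbeta2 MO group, eggs no later than the 4 cell stage received a morpholino (an antisense oligomer) against translation of ERbeta2, an estrogen receptor. In the coMO group they received a standard control morpholino, both at 15 uM, and the third group was left uninjected. The eggs of the study were pooled over several aquaria, and embryos were raised at 28 °C. The labels call the arrays of a group biological replicates. The p-values rest on the spread between replicate arrays, estimated jointly over the 3 groups and drawn towards the spread of other probe sets. The groups differed in spread. Over all tested probe sets the median log2 gap between replicates was 0.331 in ERbeta2 MO, 0.223 in coMO and 0.169 in uninjected embryos. A joint estimate can therefore understate the error of ERbeta2 MO comparisons and overstate that of coMO against uninjected embryos. The precision is limited by 2 arrays per group. A morpholino against translation can leave the mRNA level as it was, and ERbeta2 protein was not analysed here.

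The proteasome degrades proteins that carry a ubiquitin chain. Its core particle is a barrel of stacked rings, in which alpha subunits form the gate and certain beta subunits cut peptide bonds. The regulatory particle has a base, whose ATPases unfold the substrate, and a lid, which removes ubiquitin. Chaperones assemble both particles, and activators bind the core in place of the regulatory particle. Immunoproteasome beta subunits replace the constitutive catalytic subunits, mainly in immune cells or after interferon. In most cells the subunit genes are transcribed at coordinated levels, and transcription factors of the NFE2L family raise them together when proteasome activity falls short.

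Signals are MAS5 intensities, scaled by MAS5 to a 2%-trimmed mean of 500.1 on every array. The GAPDH 3'/5' ratio, the signal from the 3' end of a control transcript over that from its 5' end, was 2.76 and 2.01 after ERbeta2 MO, 1.95 and 1.23 after coMO and 1.32 and 1.24 without injection. Differences are in log2(signal + 32), a scale that understates the change of low signals, and come from limma over all 11626 tested probe sets with Benjamini-Hochberg adjustment at 0.05.

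The first question was whether the ERbeta2 morpholino changed proteasome transcripts beyond the control morpholino. None of the 43 tested genes passed, against 266 of all probe sets (2.29%), and the smallest adjusted p was 0.0911, for the activator gene psme3. At an unadjusted p under 0.05, 3 of the 43 genes (6.98%) fell below the threshold against 20.4% of all probe sets. The second question was how ERbeta2 MO embryos differed from uninjected embryos, a comparison that also includes the effect of injection. The lid gene psmd11b rose and was the sole gene called among 43 (2.33%), where 18.5% of all probe sets were called in either direction and 8.31% were called higher. The third question was what the control morpholino itself changed. No proteasome gene passed in limma, and 0.0% of all probe sets did. At an unadjusted p under 0.05 the count was 0 of 43 genes against 12.5% of all probe sets. The moderated F test over the 3 groups called 0 of 43 genes (9.52% of all probe sets), with the smallest adjusted p, 0.0803, again for psme3.

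The differences of proteasome genes were small. In ERbeta2 MO against coMO they ran from -0.33 to 0.83 with a median of 0.12, where the median of all probe sets was -0.005. Against uninjected embryos they ran from -0.67 to 0.70 with a median of 0.18 (all probe sets 0.026), and in coMO against uninjected embryos from -0.34 to 0.31 with a median of -0.02 (all probe sets 0.019). The 2300 probe sets with a mean signal over 1000 had medians of 0.013, 0.103 and 0.079 in the 3 comparisons. No proteasome gene differed by more than 1 on the log2 scale in any comparison, while 5.12%, 13.1% and 2.31% of all probe sets did. The 95% interval lay wholly within 1 of zero for 41, 39 and 42 of the 43 genes (95.3%, 90.7% and 97.7%), against 66.3%, 53.3% and 72.6% of all probe sets. The 2300 probe sets with a mean signal over 1000 gave shares of 68.6%, 54% and 74.5%. Intervals that reached further were those of psme1 in all 3 comparisons, psme3 in both that involve ERbeta2 MO, and psmd11b and psmg1 against uninjected embryos.

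**Figure D1:**
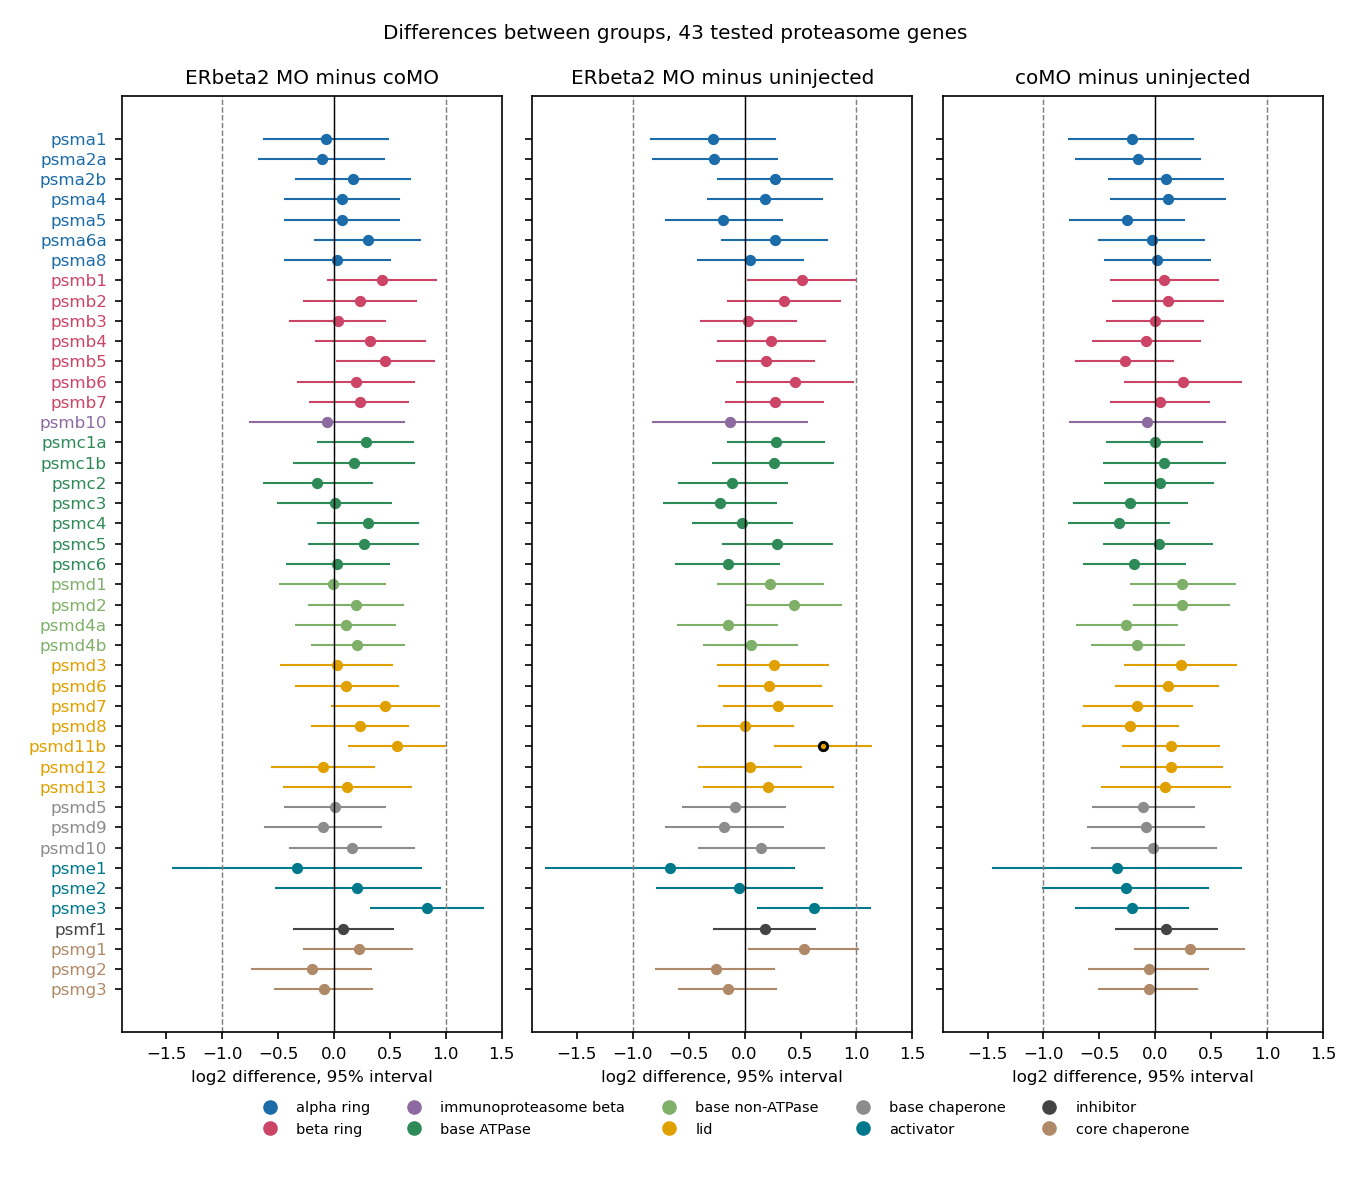
Difference in log2(signal + 32) for the 43 tested proteasome genes in the 3 comparisons, with 95% intervals from limma and colours for roles. The ringed point, psmd11b in ERbeta2 MO against uninjected embryos (0.70), is the sole gene called, and no point lies beyond the dashed lines at 1 and -1.

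**Figure D2:**
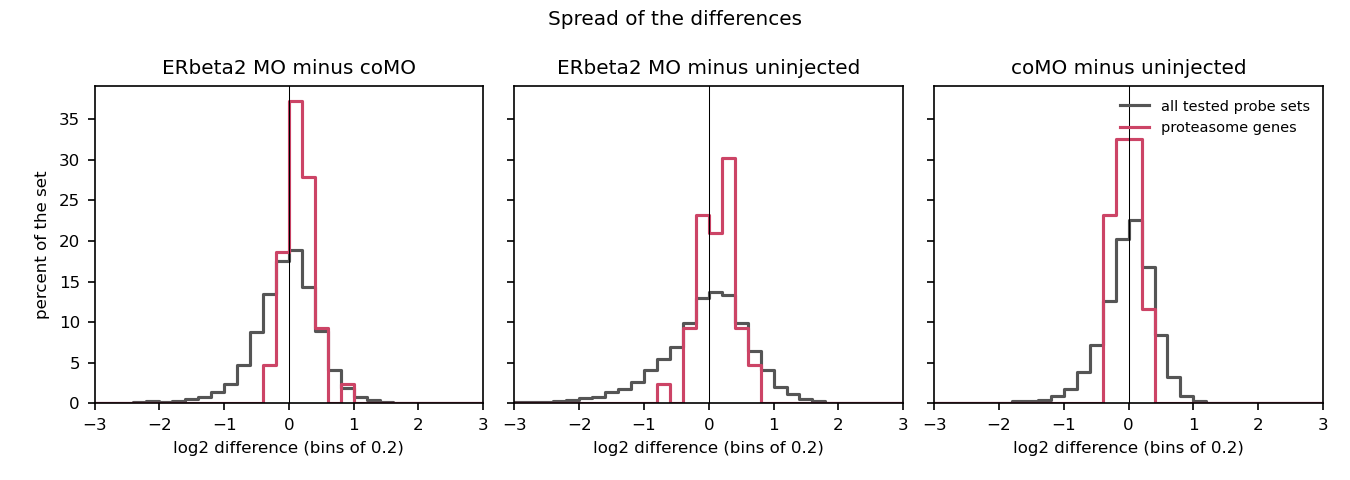
Percent of the 43 proteasome genes (red) and of all 11626 tested probe sets (grey) in bins of 0.2 of the log2 difference, for each comparison; the horizontal axis ends at 3 and -3. All proteasome genes lie between -0.67 and 0.83, and the grey outlines are wider.

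The alpha ring showed no common direction. Its 7 tested genes had a median difference of 0.07 from coMO and 0.05 from uninjected embryos, with ranges of -0.11 to 0.30 and -0.28 to 0.27. The gene psma1 gave signals of 2431 and 1628 after ERbeta2 MO, 1842 and 2372 after coMO and 2540 and 2324 without injection. The groups overlapped in all 3 comparisons, and the 2 ERbeta2 MO arrays differed more from each other than the group means did (difference from uninjected embryos -0.28, SE 0.242, adjusted p = 0.432 in limma). The pair of duplicated genes psma2a and psma2b lay on opposite sides of zero against uninjected embryos, at -0.27 and 0.27. For psma6a the ERbeta2 MO signals, 2521 and 1931, were both above the coMO signals, 1675 and 1904, and the uninjected signals, 1753 and 1908. Its differences of 0.30 and 0.27 did not pass (adjusted p = 0.446 and 0.385 in limma). The remaining alpha gene, psma6l, was below the filter, with signals between 8.78 and 89.9.

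The beta ring holds the catalytic subunits, and all 7 of its genes had positive differences in both comparisons of ERbeta2 MO, with medians of 0.23 and 0.27, yet none passed. The subunit gene psmb1 gave 4724 and 3420 after ERbeta2 MO, 2794 and 3174 after coMO and 2802 and 2833 without injection. Both ERbeta2 MO arrays were above the other 4, by 0.43 (SE 0.211, adjusted p = 0.295 in limma) from coMO and 0.51 (SE 0.211, adjusted p = 0.123) from uninjected embryos. The chymotrypsin-like subunit gene psmb5 gave 1798 and 1526 after ERbeta2 MO, 1212 and 1179 after coMO and 1389 and 1519 without injection. Here the coMO arrays were the lowest, and the uninjected arrays lay between. Its difference from coMO was 0.46 (95% interval 0.03 to 0.89, adjusted p = 0.22 in limma) and from uninjected embryos 0.19 (-0.25 to 0.62). The caspase-like subunit gene psmb6 gave 3272 and 2174 after ERbeta2 MO, 2273 and 2377 after coMO and 1884 and 2014 without injection. Its second ERbeta2 MO array lay below both coMO arrays, and the difference from uninjected embryos was 0.45 (SE 0.227, adjusted p = 0.193). For the trypsin-like subunit gene psmb7 the signals were 4084 and 3475 after ERbeta2 MO, 2951 and 3505 after coMO and 3048 and 3210 without injection. Those of ERbeta2 MO and coMO overlapped, and the difference from coMO was 0.23 (SE 0.191, adjusted p = 0.547 in limma). The others, psmb2, psmb3 and psmb4, differed from coMO by 0.23, 0.04 and 0.32.

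Immunoproteasome and related beta subunits gave low signals. Of 5 genes only psmb10 was tested, with 233 and 112 after ERbeta2 MO, 164 and 178 after coMO and 164 and 199 without injection. The 2 ERbeta2 MO arrays enclosed the other 4, and the differences were -0.06 and -0.13 (adjusted p = 0.939 and 0.794 in limma). The gene psmb8a gave 7.50 and 10.2 after ERbeta2 MO, 35.0 and 31.8 after coMO and 24.7 and 45.1 without injection. Its ERbeta2 MO signals were the lowest, at a level where the value table does not separate signal from background. In the fit without a filter psmb8a differed by -0.68 from coMO and -0.70 from uninjected embryos (adjusted p = 0.207 and 0.0906 in limma). The signals of psmb9a lay between 14.4 and 38.6, those of psmb12 between 27.1 and 53.6 and those of psmb13a between 5.53 and 60.3, with the ERbeta2 MO group overlapping both other groups.

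In the regulatory particle, the 7 base ATPases had a median difference of 0.18 from coMO and -0.02 from uninjected embryos. The gene psmc1a gave 2732 and 2266 after ERbeta2 MO, 2026 and 2046 after coMO and 1997 and 2087 without injection. Its ERbeta2 MO arrays were above the other 4, by 0.29 and 0.28 (SE 0.186, adjusted p = 0.425 and 0.313 in limma). Its duplicate psmc1b gave 1019 and 702, 808 and 686, and 762 and 649, with overlap between all groups. The gene psmc2 gave 2176 and 1778, 1942 and 2448, and 2293 and 1961, also overlapping. Among the brightest probe sets of the genes, psmc4 had the smallest p between coMO and uninjected embryos. Its coMO signals, 1498 and 1889, were below the uninjected signals, 2150 and 2078. That difference of -0.32 (SE 0.193) had an adjusted p of 0.509 in limma. The next smallest belonged to psmb5 (-0.27), psmg1 (0.31), psmd4a (-0.26) and psmd2 (0.24), with adjusted p from 0.568 to 0.618. A second tested psmg1 probe set differed by -0.67 (adjusted p = 0.385 in limma), with a smaller p than that of psmc4.

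Among the base non-ATPases, the scaffold gene psmd2 gave 1259 and 1166 after ERbeta2 MO, 1028 and 1074 after coMO and 935 and 840 without injection. The 3 groups did not overlap, and ERbeta2 MO was highest, by 0.44 from uninjected embryos (SE 0.185, adjusted p = 0.129 in limma). The other scaffold gene, psmd1, gave 1848 and 1423, 1576 and 1699, and 1298 and 1461, a difference of -0.01 from coMO and 0.23 from uninjected embryos. The duplicated genes psmd4a and psmd4b encode a ubiquitin receptor. Signals of psmd4a were 1577 and 1396 after ERbeta2 MO, 1253 and 1511 after coMO and 1720 and 1588 without injection, with both ERbeta2 MO and both coMO arrays below the uninjected arrays. For psmd4b they were 922 and 864, 767 and 764, and 864 and 849, so that the coMO arrays were the lowest. Against uninjected embryos the ERbeta2 MO differences were -0.15 for psmd4a and 0.06 for psmd4b.

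The lid held the sole called gene. The lid subunit encoded by psmd11b contacts the core particle and stabilizes the joined complex. It gave 951 and 938 after ERbeta2 MO, 673 and 593 after coMO and 586 and 555 without injection. Both ERbeta2 MO arrays were above the other 4, and the coMO arrays were above the uninjected arrays. The difference from uninjected embryos was 0.70 (1.62-fold, SE 0.188, adjusted p = 0.0363 in limma) and from coMO 0.56 (1.47-fold, SE 0.188, adjusted p = 0.159). The signals of psmd11b on the ERbeta2 MO arrays were almost equal, and the difference was 0.69 without the first and 0.71 without the second. Those fits hold 1 ERbeta2 MO array and take its spread from the other groups, so a call in them says little. The call of psmd11b was lost without any 1 of the coMO or uninjected arrays, with differences of 0.66 to 0.73. Each fit without a control array also called fewer probe sets of the whole table in both ERbeta2 MO comparisons. A call lost in such a fit, here and below, thus depended on single control arrays, as many calls of the whole table did. The call of psmd11b was also lost with quantile normalization (adjusted p = 0.0575 in limma) or only the 4 arrays compared (0.0635). With the GAPDH 3'/5' ratio as a covariate the difference was 0.52 (adjusted p = 0.665), and no probe set passed in that fit. The gene psmd7, a partner of the lid's deubiquitinase, gave 2070 and 1616 after ERbeta2 MO, 1388 and 1262 after coMO and 1626 and 1343 without injection. Its coMO arrays were both below the ERbeta2 MO arrays, by 0.46 (SE 0.210, adjusted p = 0.266 in limma). The gene psmd12 gave 1890 and 1536, 1673 and 1990, and 1646 and 1650, with differences of -0.10 and 0.05. The other lid genes, psmd3, psmd6, psmd8 and psmd13, differed by 0.03 to 0.23 from coMO and by 0.00 to 0.26 from uninjected embryos. The lid gene psmd14, as well as psmd11a and the activator genes psme4a and psme4b, had no probe set with a single symbol and were not analysed here.

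Activators gave the widest spread. The gene psme3 encodes the subunit of a nuclear activator ring. It gave 1470 and 1104 after ERbeta2 MO, 751 and 657 after coMO and 891 and 752 without injection. Both ERbeta2 MO arrays were above the other 4. The difference was 0.83 from coMO (1.78-fold, SE 0.218, adjusted p = 0.0911 in limma) and 0.62 from uninjected embryos (1.54-fold, SE 0.218, adjusted p = 0.0796), neither past the threshold. The genes psme1 and psme2 encode the subunits of an activator that is induced by interferon gamma in mammals. Signals of psme1 were 135 and 20.3 after ERbeta2 MO, 67.9 and 107 after coMO and 132 and 104 without injection. One ERbeta2 MO array gave the highest and the other the lowest of the 6 values, and the difference from uninjected embryos was -0.67 with a 95% interval of -1.78 to 0.44. Without ERbeta2 MO replicate 1, psme1 was called lower than in uninjected embryos (-1.51, adjusted p = 0.00906 in limma), in a fit that holds 1 ERbeta2 MO array and takes its spread from the other groups. Signals of psme2 were 187 and 112, 150 and 96.8, and 197 and 115, in which replicate 1 was the higher in each group.

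The inhibitor gene psmf1 gave 237 and 234 after ERbeta2 MO, 225 and 215 after coMO and 198 and 209 without injection, a difference of 0.18 from uninjected embryos (SE 0.196, adjusted p = 0.537 in limma). The products of psmg1 and psmg2 form a pair that assembles the alpha ring. The psmg1 signals were 354 and 281 after ERbeta2 MO, 255 and 279 after coMO and 223 and 197 without injection, and those of psmg2 were 404 and 292, 352 and 455, and 412 and 427. By these probe sets the pair lay on opposite sides of zero against uninjected embryos. The differences were 0.53 for psmg1 (SE 0.211, adjusted p = 0.113) and -0.26 for psmg2 (SE 0.231, adjusted p = 0.444). A second psmg1 probe set differed by -0.82 (adjusted p = 0.0713 in limma), on the same side as psmg2. The third core chaperone gene, psmg3, differed by -0.15. The base chaperone genes psmd5, psmd9 and psmd10 differed from uninjected embryos by -0.09, -0.18 and 0.15 and from coMO by 0.01, -0.10 and 0.16.

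**Figure D3:**
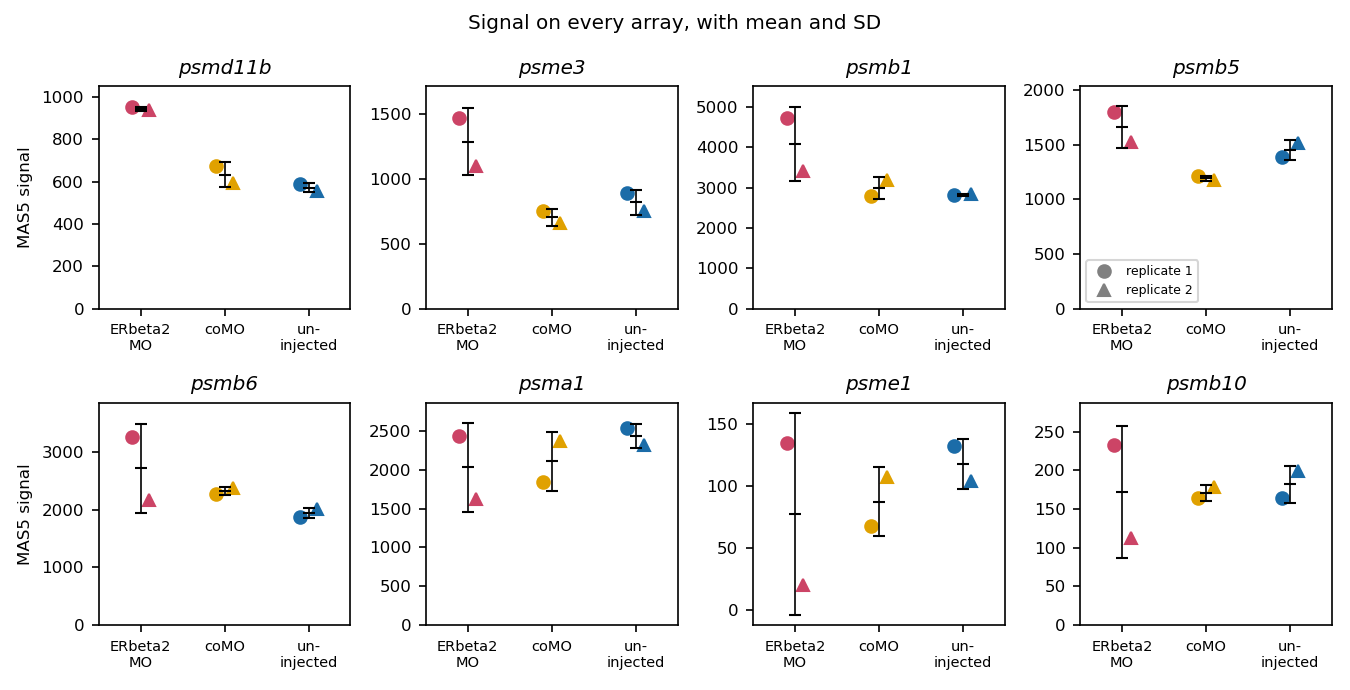
MAS5 signal of 8 proteasome genes on every array (circle, replicate 1; triangle, replicate 2), with the mean and SD of each group of 2 as bars; the axis of psme1 extends below 0 because its SD exceeds its mean. The ERbeta2 MO arrays nearly coincide for psmd11b (951 and 938) and lie far apart for psmb6, psma1, psme1 and psmb10.

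Between the 2 ERbeta2 MO arrays, nearly all tested proteasome genes differed in a single direction, some by very little. Replicate 1 was higher than replicate 2 in 41 of the 43 genes, with a median difference of 0.314, and psmc3 and psmd10 were the exceptions. The gap was 0.01 for psmc4, 0.02 for psmd11b and psmf1, and up to 1.68 for psme1. Of all tested probe sets 46.3% were higher on replicate 1, and of the 2300 with a mean signal over 1000 the share was 47.5% (median -0.026). In coMO replicate 1 was higher in 12 of 43 genes (median -0.133, against 49.6% of all probe sets) and in uninjected embryos in 24 of 43 (median 0.024, against 45.8%). Relative to each gene's mean over the 6 arrays, the median proteasome gene stood at 0.266 and -0.077 on the ERbeta2 MO arrays, -0.126 and 0.043 on the coMO arrays, and -0.019 and -0.061 on the uninjected arrays. The second ERbeta2 MO array thus lay within the range of the 4 control arrays, and the first lay above it. In the beta ring these medians were 0.432 and -0.044, -0.142 and 0.027, and -0.108 and -0.071. The same medians over all probe sets stayed between -0.03 and 0.029.

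**Figure D4:**
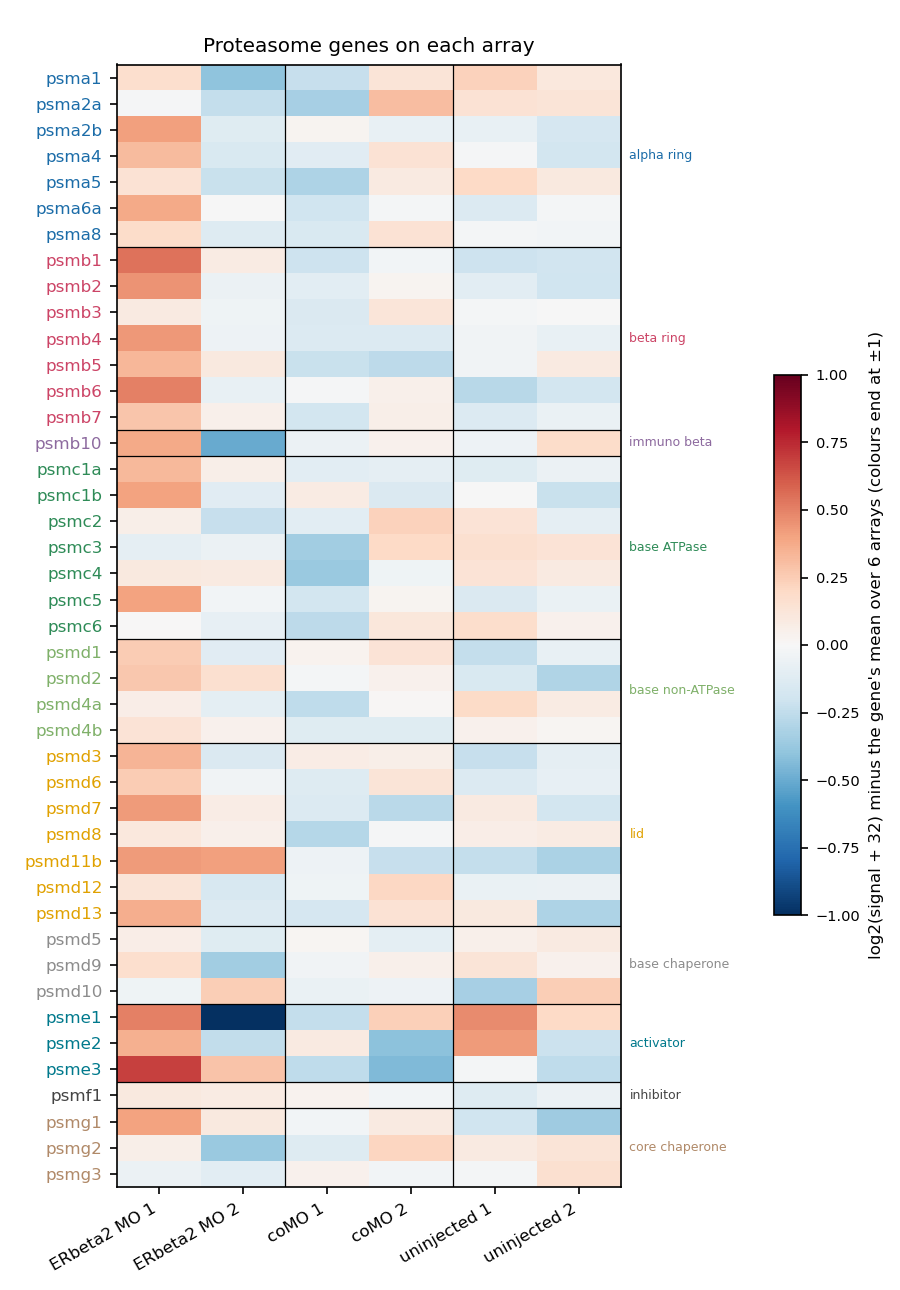
Log2(signal + 32) of the 43 tested proteasome genes on each array, minus each gene's mean over the 6 arrays, ordered by role; colours end at 1 and -1. The column of ERbeta2 MO replicate 1 is the reddest, with 41 of 43 genes above replicate 2 of the same group.

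In most genes the group difference was no larger than the gap between arrays of a group. The difference between group means was larger than the larger of the 2 replicate gaps in 9 of 43 genes (20.9%) for ERbeta2 MO against coMO, in 11 (25.6%) against uninjected embryos and in 9 (20.9%) for coMO against uninjected embryos. The shares of all probe sets were 34.6%, 50.5% and 39.6%. Groups did not overlap with ERbeta2 MO above coMO in 15 of 43 genes and below it in 1 (24.6% and 23.5% of all probe sets). Against uninjected embryos ERbeta2 MO was wholly above in 14 genes and wholly below in 6 (33.6% and 30.1%), and coMO was wholly above uninjected embryos in 10 and wholly below in 9 (28.9% and 26.3%). Positive differences were found for 33, 28 and 19 of the 43 genes in the 3 comparisons, against 49.5%, 51.7% and 52.1% of all probe sets. Of the 2300 probe sets with a mean signal over 1000, 51.1%, 56% and 58.3% were positive. The comparisons share arrays, and the genes share the arrays on which they were measured.

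Further measures also differed between the 2 ERbeta2 MO arrays. The GAPDH 3'/5' ratio was 2.76 on replicate 1 and 2.01 on replicate 2. In coMO it was also higher on replicate 1, at 1.95 and 1.23. There replicate 1 was the higher array in 12 of 43 proteasome genes (median difference -0.133). Summed signals of skeletal muscle markers (4 of 5 with a probe set) were 118275 and 91225 on the ERbeta2 MO arrays, against 108052 to 154882 on the other 4. Summed epidermis markers (4 of 5) were 33128 and 10379, against 35211 to 54798. Summed photoreceptor markers (4 of 4) were 867 and 5489, against 24693 to 33985, and liver markers (4 of 5) 19930 and 14043, against 21203 to 39430. Neuron markers (5 of 5) summed to 19530 and 34086, against 18764 to 25590, and red blood cell markers (3 of 5) to 32853 and 44941, against 14249 to 33100. Leukocyte markers (7 of 7) summed to 943 and 1132, against 1091 to 1469. The sums follow their brightest members, and some members differed. The liver markers apoa2 (15837 and 10341) and fgb (1319 and 707) were higher on replicate 1. The liver markers fabp10a (45.0 and 141) and tfa (2728 and 2854) and the muscle marker actc1b (41171 and 43432) were higher on replicate 2. The leukocyte markers cxcr4b (203 and 174, against 73.4 to 124) and coro1a (118 and 103) were higher on replicate 1. The lowest mean signal of a marker with a probe set was 58.3, among the leukocyte markers. Without detection calls, such low signals do not separate expression from background. The part of tissue composition and of RNA quality in the proteasome values was not tested. In RNA of whole embryos, fewer cells of a type and less RNA per cell cannot be told apart.

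Core and regulatory particle had similar median differences. The median difference between ERbeta2 MO and coMO was 0.17 for the 15 core genes and 0.15 for the 18 regulatory genes. Against uninjected embryos the medians were 0.19 and 0.22, and between coMO and uninjected embryos 0.00 and 0.03. On single arrays the core median minus the regulatory median was 0.074 and -0.032 after ERbeta2 MO, -0.029 and 0.015 after coMO and -0.058 and 0.044 without injection. Its sign changed within every group, so no difference between the particles exceeded the spread between replicates. The core median of ERbeta2 MO against coMO was -0.095 without ERbeta2 MO replicate 1 and 0.386 without replicate 2, where the regulatory median was 0.021 and 0.259. Against uninjected embryos it was -0.003 and 0.381 in these fits, and the regulatory median was 0.005 and 0.39. With replicate 2 left out, limma called psmb1 (0.66) and psme3 (1.03) higher than in coMO. In that fit psmb1, psmb2, psmb6, psmd11b and psme3 were called higher than in uninjected embryos, with a single ERbeta2 MO array assumed to vary like the other groups.

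A second tested probe set existed for psmc1b, psmd1, psmd9, psmd12, psmf1 and psmg1. For psmd9 the second probe set gave 197 and 127 after ERbeta2 MO, 198 and 269 after coMO and 348 and 293 without injection. It was called lower than in uninjected embryos (-0.88, SE 0.257, adjusted p = 0.0475 in limma), while the first probe set differed by -0.18. The call was lost without ERbeta2 MO replicate 2 or any 1 of the control arrays (adjusted p = 0.0721 to 0.27). It was also lost with a pseudocount of 1 (0.051), no filter (0.0616), the stricter filter (0.0537), median centring (0.0679), quantile normalization (0.0655), only the 4 arrays compared (0.072) and averaged probe sets (0.145). For psmg1 the second probe set gave 148 and 150, 122 and 231, and 313 and 266, lowest in the injected groups, where the first was highest. The difference from uninjected embryos was -0.82 (adjusted p = 0.0713) in the second and 0.53 in the first. For psmf1 they were -0.63 and 0.18. The transcripts that these probe sets read were not analysed here, so the direction of psmg1 and psmf1 depends on the probe set. That of psmc1b does too, at 0.26 in the first and -0.10 in the second against uninjected embryos and 0.18 and -0.04 against coMO. Against uninjected embryos the first and second probe sets were both positive for psmd1 (0.23 and 0.18) and psmd12 (0.05 and 0.23). From coMO their signs differed, at -0.01 and 0.07 for psmd1 and -0.10 and 0.18 for psmd12. The probe set names of psmd8, psmc6, psma8 and psmd13 share a cluster with probe sets of other genes. The cluster is shared with cand1 for psmd8, with sv2bb for psmd13 and with gstp1.2, postnb and rplp2b for psma8. That of psmc6 holds many genes, among them atp2a1, eif5a, sox3 and tuba5. The identity of these 4 is thus less certain. Both symbols of interacting proteins, psmc3ip (below the filter) and psme3ip1, were not counted. The brightest psme3ip1 probe set differed by 0.21 from coMO, and its other tested probe sets by -0.28, -0.37 and -0.26.

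**Figure D5:**
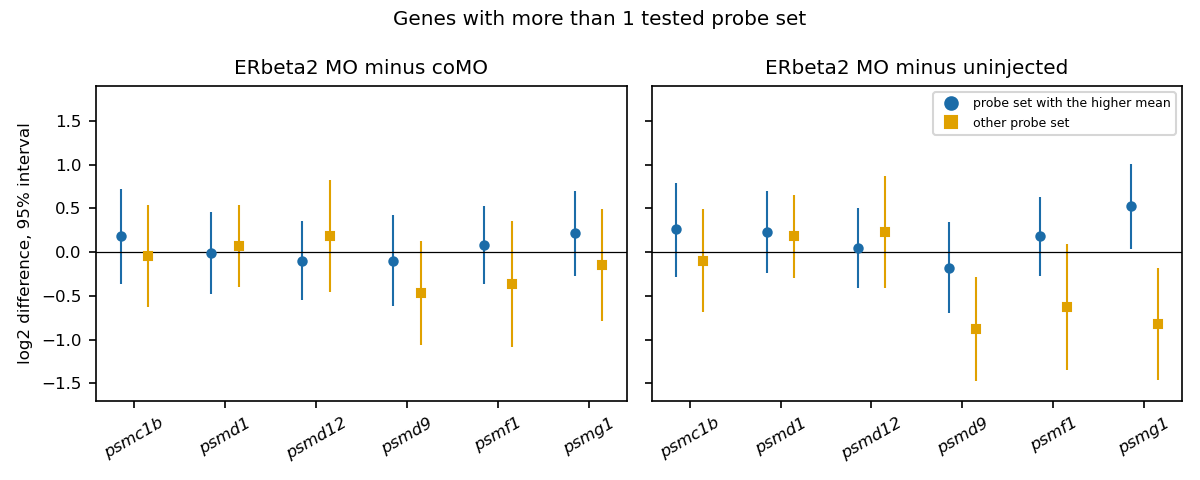
Log2 difference with 95% interval for both tested probe sets of 6 proteasome genes, in ERbeta2 MO against coMO and against uninjected embryos (circle, the probe set with the higher mean; square, the other). For psmg1 (0.53 and -0.82), psmf1 (0.18 and -0.63) and psmc1b (0.26 and -0.10) the probe sets point in opposite directions against uninjected embryos.

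Genes that work with the proteasome were read in 3 lists. Among 18 partner genes outside the symbol rule, 11 were tested, with 1 probe set, the brightest, read per gene, and 2 rose against uninjected embryos (18.2%, against 18.5% of all probe sets called in either direction and 8.31% called higher). The gene akirin2, whose product imports proteasomes into the nucleus in human cells, gave 2504 and 2240 after ERbeta2 MO, 1642 and 1560 after coMO and 1313 and 1380 without injection (0.80, SE 0.181, adjusted p = 0.0215 in limma). The gene txnl1, which encodes a thioredoxin-like protein bound to the regulatory particle, gave 1336 and 1010, 700 and 690, and 571 and 574 (0.98, SE 0.205, adjusted p = 0.0169). In both genes the coMO arrays lay between the other groups, and neither was called against coMO (adjusted p = 0.151 and 0.114). Both calls were lost without either uninjected array, in fits that called fewer probe sets of the whole table. The list's median difference was 0.04 from coMO and -0.01 from uninjected embryos, so the list as a whole did not share the direction of the 2 calls. The core assembly gene pomp gave 4225 and 3476, 3485 and 3155, and 2694 and 2487 and did not pass (0.56, adjusted p = 0.0719). None of the 11 brightest probe sets was called lower. That of the transcription factor gene nfe2l2a had the most negative difference (-1.08, adjusted p = 0.0717), and its second probe set, chosen after its values were seen, was called lower than in uninjected embryos (-2.19, adjusted p = 0.00622), a call lost without uninjected replicate 1 (0.0617).

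Of 53 genes for ubiquitin, its conjugation and proteasome substrates, 40 were tested, with 1 called higher and 0 lower against coMO, and 3 called higher and 0 lower against uninjected embryos. These were 2.5% of the list against coMO, where 2.29% of all probe sets were called in either direction and 0.654% higher, and 7.5% against uninjected embryos, where 8.31% were called higher. The gene odc1 encodes ornithine decarboxylase, which the proteasome degrades without ubiquitin. It gave 2218 and 1345 after ERbeta2 MO, 563 and 683 after coMO and 610 and 672 without injection, with both ERbeta2 MO arrays above the other 4. It rose by 1.43 against coMO (SE 0.261, adjusted p = 0.0419 in limma) and by 1.39 against uninjected embryos (SE 0.261, adjusted p = 0.0121). The call against coMO was lost without the filter (adjusted p = 0.0507 in limma) and with only the 4 arrays compared (0.0899). It was also lost without any 1 of the 4 control arrays, at differences of 1.3 to 1.57. The call against uninjected embryos was lost without either uninjected array. Fits without a control array called fewer probe sets of the whole table. Like many others, the calls of odc1 thus depended on single control arrays. The conjugating enzyme gene ube2g1a gave 1621 and 1632, 1581 and 1060, and 818 and 813 and rose by 0.97 against uninjected embryos (adjusted p = 0.0233). The conjugation cofactor gene ube2v2 gave 2615 and 2450, 2182 and 1922, and 1441 and 1464 and rose by 0.79 (adjusted p = 0.0227). In both, the coMO arrays were also wholly above the uninjected arrays. Both calls were lost without either uninjected array, in fits that called fewer probe sets of the whole table. The list's median was 0.13 from coMO and 0.22 from uninjected embryos.

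Of 24 antigen processing and interferon gamma genes, 10 were tested, and 1 fell against coMO and 3 against uninjected embryos, with 0 called higher. All probe sets called lower made up 1.63% and 10.2% in these comparisons. The genes that fell, calr3a, calr3b and pdia3, encode chaperones and a disulfide isomerase of the endoplasmic reticulum, which fold many proteins besides antigen-presenting molecules. The chaperone gene canx of the same list lay on the other side of zero, with signals of 5082 and 7017 after ERbeta2 MO, 5865 and 5263 after coMO and 3358 and 4513 without injection (0.61 from uninjected embryos, adjusted p = 0.0964 in limma). The calreticulin gene calr3a gave 2042 and 2274 after ERbeta2 MO, 4529 and 4553 after coMO and 4523 and 4657 without injection. Its arrays agreed within each group, with both ERbeta2 MO arrays far below the rest, and the differences were -1.06 from coMO (SE 0.175, adjusted p = 0.0347 in limma) and -1.08 from uninjected embryos (SE 0.175, adjusted p = 0.00796). Its relative calr3b gave 362 and 395, 853 and 687, and 973 and 876 (-1.22 from uninjected embryos, adjusted p = 0.00831). The disulfide isomerase gene pdia3 gave 1076 and 1279, 2190 and 2084, and 1917 and 1860 (-0.67, adjusted p = 0.04). From coMO, calr3b and pdia3 differed by -0.96 and -0.85 without passing (adjusted p = 0.0528 and 0.0592 in limma). The calreticulin gene calr differed by -1.03 from coMO (adjusted p = 0.0749 in limma) and by -0.75 from uninjected embryos (0.0656). In all 3 genes both ERbeta2 MO arrays were below both coMO arrays. Of the 10 tested genes, 5 had positive differences from coMO. The call of calr3a against coMO was lost with only the 4 arrays compared (adjusted p = 0.0912 in limma). It was also lost without any 1 of the 4 control arrays, at differences of -1.07 to -1.06. Against uninjected embryos, the calls of calr3a and calr3b were lost without either uninjected array. That of pdia3 was lost with median centring (adjusted p = 0.0667 in limma), without the intensity trend (0.0509) and with only the 4 arrays compared (0.0743). It was also lost without ERbeta2 MO replicate 1 or any 1 control array. Fits without a control array called fewer probe sets of the whole table. Like many others, the calls of these genes thus depended on single control arrays. The list's median was 0.02 from coMO and -0.17 from uninjected embryos. No gene of the 3 lists was called between coMO and uninjected embryos by limma, where 0.0% of all probe sets were called.

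The authors' deposited tables of fold ratios hold 1046 probe sets for ERbeta2 MO against coMO, 2443 for ERbeta2 MO against uninjected embryos and 541 for coMO against uninjected embryos. None of the 61 probe sets found by the symbol rule is in the authors' deposited tables, which from their values list no ratio between 0.5 and 2. Absence does not place a member's ratio in that range. The mean signals of psmb8a, for example, were 8.84 after ERbeta2 MO, 33.4 after coMO and 34.9 without injection.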

How the data were processed

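Total RNA of whole embryos was labelled with biotin, per the labels' protocols. Per array and probe set, the authors deposited a linear MAS5 signal (an intensity) with no detection call; the submitters' processing notes name MAS5 and no version. Their 3 deposited tables of fold ratios served only to look up members. Their directions were taken from the value table.

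Of 15617 probe sets, 10802 carried 1 symbol, 135 several and 4680 none. Symbols were checked by gene number against the gene table of assembly GRCz12tu (10711 matched, 1 changed, 0 among members). Apart from that gene table, no genome build is given in the sources used here, and no coordinates are printed.

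Signals were transformed as log2(signal + 32). The 115 control probe sets and the lowest 25% by mean were left out. limma 3.58.1 (lmFit, eBayes with trend, R 4.3.3) was fitted to all 6 arrays in 1 model of 3 groups with 3 residual degrees of freedom, two-sided, with Benjamini-Hochberg adjustment over 11626 probe sets. With 2 arrays a group, the smallest exact permutation p is 0.333. The pipeline was tested on simulated data.

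The members and lists were chosen with earlier results of these data known, so no p is given over a list alone. Named genes were 25 listed subunit and regulator genes, the 5 smallest p per comparison and up to 6 called genes per list and comparison. Values of other members are given as counts, ranges or differences. Second probe sets and the other alpha, lid and chaperone genes were added to account for all members. Alternatives were pseudocounts of 1 and 100, 2 filters, median centring, quantile normalization, 2 variance priors, 4-array fits, the replicate number as a block, the GAPDH ratio as a covariate, averaged probe sets and each array left out.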

Additional observations from a re-analysis of the deposited data

How the results depend on the processing

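With 2 arrays per group, single arrays decided many calls. The count of proteasome genes called between ERbeta2 MO and uninjected embryos was 1 in the report. It was 2 with median centring (psmd11b and psme3) and 0 with quantile normalization, with the 4 arrays compared, with the replicate number as a block and after adding the GAPDH ratio as covariate. It ranged from 0 to 5 with an array left out. Between ERbeta2 MO and coMO it was 0, and 0 to 2 with an array left out; in the F test it was 0, and 0 to 3. It was 0 in all settings between coMO and uninjected embryos. The core median ranged from -0.095 to 0.386 against coMO and from -0.003 to 0.381 against uninjected embryos with an array left out, and the regulatory median against uninjected embryos from 0.005 to 0.39. The cause was not tested. Median centring shifted the median of all probe sets by 0.07, 0.12 and 0.05 in the 3 comparisons. The difference of psmd11b from uninjected embryos lay between 0.52 and 0.82 and was called in 10 of 18 alternatives (adjusted p 0.0222 to 0.665 in limma). These 10 include both fits that hold 1 ERbeta2 MO array. Differences between replicate 1 and replicate 2 had correlations of -0.084, 0.109 and -0.098 between groups over the tested probe sets. The labels do not say what the replicate number marks, and a shared origin of same-numbered arrays was not tested. With the block the calls of psmd11b (adjusted p = 0.0611 in limma), the second psmd9 probe set (0.062) and pdia3 (0.0713) against uninjected embryos and of odc1 (0.0604) and calr3a (0.0582) against coMO were lost, and the calls over all probe sets went from 266 to 142, from 2156 to 1927, and in the F test from 1107 to 787. Over all probe sets 129 to 280 were called against coMO under the pseudocounts, filters, scalings and priors, 60 in the fit of 4 arrays and 0 to 1602 with an array left out. Against uninjected embryos 1681 to 2510, 1492 and 35 to 3150 were called, and between coMO and uninjected embryos 0, 2 and 0 to 4. The F test called 811 to 1297, and 31 to 2676 with an array left out. After adding the GAPDH ratio no probe set was called in any comparison by limma, and 773, 1055 and 873 had an unadjusted p under 0.05. Because the ratio was highest on the ERbeta2 MO arrays, that fit cannot tell ratio and group apart. Median centring gave 1495 higher and 1015 lower calls against uninjected embryos, in place of 966 and 1190. MAS5 signals without detection calls leave the immunoproteasome genes below the filter undetermined.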

Other observations

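Transcription factor genes of the NFE2L family, some of which activate proteasome subunit genes, were looked up after their values were seen. The family members nfe2l1a and nfe2l1b, both on the partner list, had no probe set with a single symbol and were not analysed here. One probe set of nfe2l2a gave 51.9 and 124 after ERbeta2 MO, 106 and 161 after coMO and 471 and 507 without injection. Both injected groups were far below the uninjected arrays, and limma called it lower in ERbeta2 MO than in uninjected embryos (-2.19, SE 0.318, adjusted p = 0.00622), a call lost without uninjected replicate 1 (adjusted p = 0.0617). Between coMO and uninjected embryos its difference was -1.67 (SE 0.318, adjusted p = 0.32). The other probe set of nfe2l2a gave 407 and 161, 286 and 393, and 625 and 542, again lowest in the injected groups (-1.08 from uninjected embryos, SE 0.365, adjusted p = 0.0717). The gene nfe2l3 went the other way, with 705 and 501 after ERbeta2 MO, 412 and 356 after coMO and 307 and 317 without injection. It was called higher in ERbeta2 MO than in uninjected embryos (0.87, SE 0.224, adjusted p = 0.0322). That call was lost without ERbeta2 MO replicate 1, either coMO array or either uninjected array (adjusted p = 0.0592 to 0.199).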
